A study of Arabidopsis thaliana with 24 samples.

Results

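Calmodulins and calmodulin-like proteins are small calcium sensors built from EF-hands, helix-loop-helix units that fold around a calcium ion. When cytosolic calcium rises, the calcium-loaded sensor changes shape and binds to target proteins such as calcium pumps, protein kinases and transcription factors. Extracellular ATP, which leaks from damaged plant cells, is perceived by the receptor kinase P2K1 and triggers such a calcium rise, and several genes of the family are known as touch-, wound- or pathogen-responsive genes. The members described here were 42 of the 33245 genes counted and were chosen as the loci of the calmodulin (CAM) and calmodulin-like (CML) family of Arabidopsis thaliana. Of these, 37 passed the filter on low counts and were tested, among 20995 genes tested in all. Genes are named by the symbols of the RefSeq gene table and otherwise by locus. CAM8 and CAM9 are also known as CML8 and CML9, TCH2 as CML24 and AT1G76640 as CML39, whereas TCH3 (AT2G41100) is a calmodulin-like gene first found as touch-induced. Members with a locus only are annotated as calcium-binding EF-hand proteins, apart from AT4G37010 and AT3G50360, which are annotated as centrins.

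Polyadenylated RNA was sequenced from whole seedlings of 4 genotypes: wild-type Col-0, the p2k1-3 mutant of the ATP receptor gene P2K1, the bdg-8 mutant of BDG1, a gene of cuticle formation, and a double mutant, p2k1-3 bdg-8, that carries both alleles. Seedlings of each were treated for 30 min with 150 µM ATP, or were mock-treated, which made 8 groups of 3 replicates and 24 libraries. The labels name the replicates by number and do not say whether they came from separate plantings, so p-values reflect only how much these libraries varied, which could be technical variation. Libraries held 25856588 to 35239775 reads counted in genes. Because the libraries came from whole seedlings, fewer cells of a type and less RNA per cell cannot be told apart. Markers of dividing cells, root endodermis, root hairs and green tissue were all detected, with none at 0 in any group. The summed level of 4 green-tissue markers was 16500 to 23300 CPM (counts scaled to library size) in Col-0 and p2k1-3 libraries and 10900 to 16100 CPM in libraries carrying bdg-8, and these ranges did not overlap. Transcript of P2K1 (AT5G60300) was lower in p2k1-3 than in Col-0 without ATP, at 12.1 ± 0.927 against 21.4 ± 0.821 CPM (SD, n = 3 each). Transcript of BDG1 (AT1G64670) was lower in bdg-8 than in Col-0 without ATP, at 14.2 ± 1.77 against 25.4 ± 0.451 CPM, but with ATP it reached 107 ± 9.87 CPM in bdg-8 against 26.0 ± 1.76 CPM in Col-0. In every group replicate 3 lay between the others for 42.6 to 58.1% of 12474 genes with a mean of at least 10 CPM, where replicate 1 did so for 20.3 to 27.8% and replicate 2 for 21.6 to 29.7%. Replicate 3 differed from the best mixture of the other replicates by 1.22 to 1.84 times the counting variance, where replicates 1 and 2 differed from each other by 2.74 to 6.16 times. Whether replicate 3 of each group is an independent sample is therefore in doubt, and if it is not, the SDs, SEs and p-values given for 3 libraries are too small. Counts of members called in a comparison are given with and without replicate 3 where any were called. Counts for the markers and the other gene lists are given with all libraries only.

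The letters just upstream of 5 members are shown because these genes had among the clearest responses: TCH2 and CML23 as a related pair, the neighbouring genes CML38 and AT1G76640, of which AT1G76640 alone was called for a smaller response in the double mutant than in bdg-8, and CML37, which had the highest fold change in 3 of the 4 genotypes. Each run is the 250 bases before the gene start in the RefSeq annotation of TAIR10.1, all on the minus strand and written 5′ to 3′ toward the gene. The regions are chr5:14999620-14999869 for TCH2, chr1:24771394-24771643 for CML23, chr1:28768139-28768388 for CML38, chr1:28765867-28766116 for AT1G76640 and chr5:16943821-16944070 for CML37. Capitals mark the letters CGCGTT, a form of the core bound by calmodulin-binding transcription activators, and TTGAC, the core of WRKY sites, on either strand. Other forms of the first core were not searched for and are not marked or counted.
TCH2: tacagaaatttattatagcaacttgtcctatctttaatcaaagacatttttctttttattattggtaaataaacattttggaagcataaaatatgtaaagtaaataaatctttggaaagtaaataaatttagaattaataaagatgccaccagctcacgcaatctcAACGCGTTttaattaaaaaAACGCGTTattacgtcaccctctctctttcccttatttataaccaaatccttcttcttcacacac
CML23: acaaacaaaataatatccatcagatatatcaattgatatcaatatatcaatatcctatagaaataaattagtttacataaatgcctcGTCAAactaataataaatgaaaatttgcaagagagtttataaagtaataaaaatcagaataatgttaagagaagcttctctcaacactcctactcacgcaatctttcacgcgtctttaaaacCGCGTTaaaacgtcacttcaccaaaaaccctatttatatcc
CML38: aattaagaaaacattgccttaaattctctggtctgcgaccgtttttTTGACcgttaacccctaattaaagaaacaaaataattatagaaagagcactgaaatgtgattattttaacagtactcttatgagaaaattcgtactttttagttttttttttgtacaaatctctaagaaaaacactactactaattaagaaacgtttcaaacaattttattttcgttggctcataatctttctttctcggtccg
AT1G76640: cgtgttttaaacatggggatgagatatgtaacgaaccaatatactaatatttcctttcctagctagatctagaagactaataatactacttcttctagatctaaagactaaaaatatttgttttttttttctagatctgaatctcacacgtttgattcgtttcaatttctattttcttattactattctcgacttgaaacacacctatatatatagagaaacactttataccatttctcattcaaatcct
CML37: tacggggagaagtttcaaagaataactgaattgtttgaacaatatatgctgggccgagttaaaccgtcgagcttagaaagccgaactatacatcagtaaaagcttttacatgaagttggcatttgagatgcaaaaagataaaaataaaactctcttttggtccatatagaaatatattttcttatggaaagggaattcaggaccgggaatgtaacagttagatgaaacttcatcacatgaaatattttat
TCH2 held 4 matches to CGCGTT, which overlap each other in 2 palindromic stretches at 84 to 63 bases before the start. CML23 held 1 match to CGCGTT at 41 bases and 1 match to TTGAC at 163 bases before the start. CML38 held 1 match to TTGAC at 204 bases, and the windows of AT1G76640 and CML37 held neither run of letters. Over the same windows of 27443 protein-coding genes, 2.59% held CGCGTT and 44.9% held TTGAC. Among the 42 members, TCH2 and CML23 were the 2 with CGCGTT (4.76%), and 20 held TTGAC (47.6%). The windows of AT3G29000 and TCH3, which also rose strongly and are not shown, held no CGCGTT, and that of AT3G29000 held 2 matches to TTGAC. Of the 12 members that rose at least 2-fold with ATP in Col-0, 2 held CGCGTT and 4 held TTGAC. Of the other 25 members tested, 0 held CGCGTT and 14 held TTGAC. Whether either run of letters goes with the response was not tested. A match describes the letters of the window and not a bound site.

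In Col-0, 30 min of ATP raised the transcripts of 22 of the 37 members tested and lowered none, by edgeR's quasi-likelihood test at a Benjamini-Hochberg adjusted p below 0.05 over all genes. Across all genes tested, 13.2% were called higher and 8.67% lower. Of the 22, 12 rose at least 2-fold, and the median log2 fold change of the 37 was 0.305 (-0.0106 over all genes tested). The rise was carried by AT3G29000, CML37, AT1G76640, CML38, AT3G01830 and TCH3, each of which rose more than 9-fold, while the canonical calmodulins moved little. In p2k1-3, 15 members rose and 3 fell, against 11.9% of all genes called higher and 8.53% lower. The 3 that fell were CML43 (log2 fold change -0.67), AT1G73630 (-0.54) and CAM6 (-0.12), and the CAM6 call was lost with RLE factors (adjusted p = 0.061), with no filter (0.074) and without any 1 of p2k1-3 mock replicates 2 and 3 and the ATP replicates (0.053 to 0.17). The CML43 call was lost without replicate 2 (adjusted p = 0.067) or replicate 3 (0.054). In bdg-8, 26 rose and none fell, against 18.7% of all genes higher and 17.7% lower. In the double mutant, 24 rose and 2 fell, AT1G24620 (-0.92, not called without replicate 3, adjusted p = 0.1) and AT1G73630 (-0.28, not called without mock replicate 1 or ATP replicate 3 of that genotype, adjusted p = 0.079 and 0.069), against 17.1% of all genes higher and 16.5% lower. Of 3 root-hair markers, ATP lowered 1 in Col-0, 3 in p2k1-3, none in bdg-8 and 3 in the double mutant, with median log2 fold changes of -0.34, -0.437, -0.242 and -0.426. Of 2 root-endodermis markers, 1 was lower with ATP in p2k1-3, 1 was lower in the double mutant and 1 was higher in bdg-8. Of 4 green-tissue markers, 1 was lower with ATP in bdg-8, 1 in the double mutant and none in Col-0 or p2k1-3. Their median log2 fold changes were 0.0398 in Col-0, 0.161 in p2k1-3, -0.0467 in bdg-8 and -0.106 in the double mutant. Neither marker of dividing cells was called in any genotype. The part of these markers in the members' results was not tested.

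**Figure D1:**
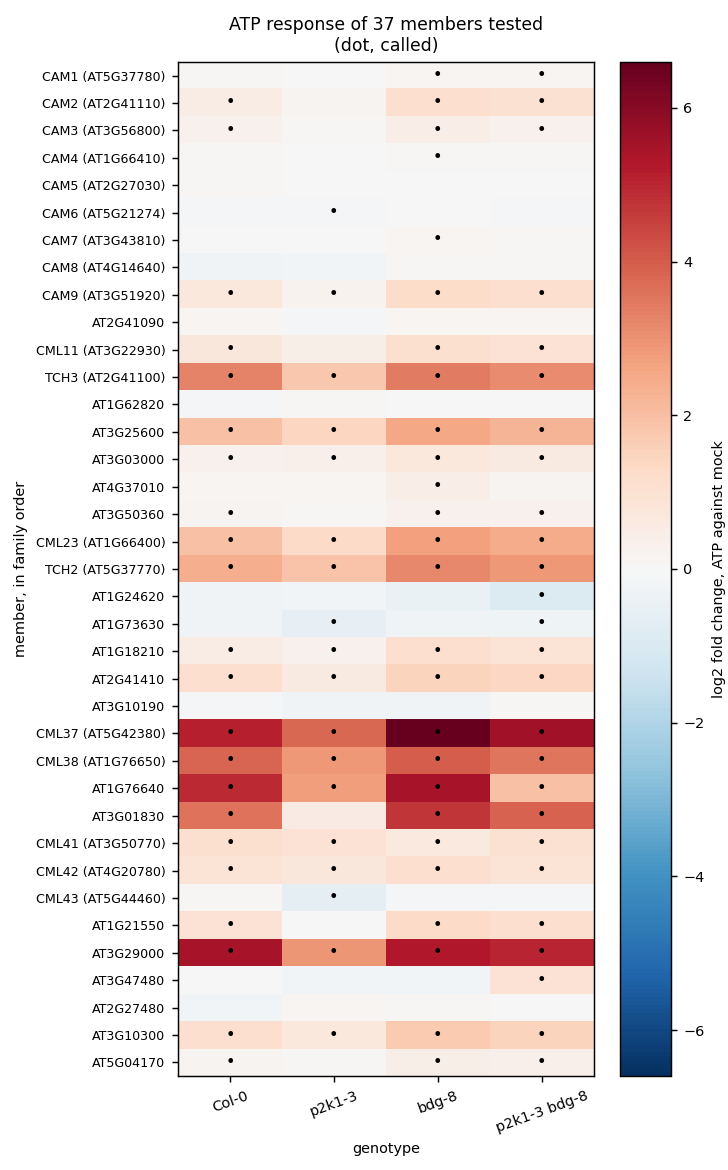
Heat map of the log2 fold change with ATP against mock (colour, scale at right) for the 37 members tested (rows, in family order) in the 4 genotypes (columns), with a dot where the change was called. The strong colours sit at TCH3, TCH2, CML23, CML37, CML38, AT1G76640, AT3G01830 and AT3G29000, and AT1G76640 is paler in both genotypes with p2k1-3.

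The same 15 members rose in all 4 genotypes: CAM9, TCH3, AT3G25600, AT3G03000, CML23, TCH2, AT1G18210, AT2G41410, CML37, CML38, AT1G76640, CML41, CML42, AT3G29000 and AT3G10300. They were 40.5% of the members tested, where 8.17% of all genes tested rose in all 4. Taken among the risers of Col-0, however, the share was 68.2% for members and 62.1% for all genes. These shares were taken with all libraries. Without replicate 3, CAM9 was not called in p2k1-3 (edgeR adjusted p = 0.23) and AT3G03000 not in Col-0 or p2k1-3 (0.24 and 0.26). CML41 was then not called in Col-0, p2k1-3 or bdg-8 (0.087, 0.15 and 0.12). Each of the 22 risers of Col-0 was also called higher in bdg-8 and in the double mutant, as were 84.9% of all genes that rose in Col-0. Of the 22, 7 (31.8%) were not called in p2k1-3, the same share as over all risers of Col-0 (31.8%), namely CAM2, CAM3, CML11, AT3G50360, AT3G01830, AT1G21550 and AT5G04170. A further 4 rose in bdg-8 without a call in Col-0, namely CAM1, CAM4, CAM7 and AT4G37010, each of which lost its call without 1 or more single bdg-8 libraries (adjusted p 0.068 to 0.13). They were 10.8% of the members, against 6.57% of all genes. No change was called in any genotype for 6 members, CAM5, CAM8, AT2G41090, AT1G62820, AT3G10190 and AT2G27480 (16.2%, against 49.6% of all genes). Without replicate 3, the members called numbered 18 in Col-0, 13 in p2k1-3, 21 in bdg-8 and 22 in the double mutant. Over all genes, the number called higher in Col-0 went from 2765 to 1836 and the number called lower from 1820 to 658 when replicate 3 was left out.

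The canonical calmodulins CAM1 to CAM7 encode proteins that are identical or nearly so, with CAM2, CAM3 and CAM5 known to share 1 protein sequence and CAM1 and CAM4 another. Their coding sequences of 450 bases were 82.7 to 91.3% identical over the 21 pairs, with a longest identical run of 17 to 41 bases, and reads that lie within such a run cannot be told apart. Of the 7, 6 stood at 56.8 to 128 CPM per kb of exon in Col-0 mock libraries, whereas CAM2 stood at 6.81 CPM per kb. CAM2 and CAM3 were the 2 that rose with ATP in Col-0. CAM2 stood at 6.49, 6.4 and 5.92 CPM in the Col-0 mock libraries and at 9.58, 8.49 and 8.29 CPM with ATP (log2 fold change 0.49, SE 0.109, edgeR adjusted p = 0.0014). In bdg-8 it went from 8.13, 6.29 and 8.35 CPM to 16.4, 16.3 and 15.8 CPM (1.09, SE 0.1). The ATP libraries lay above all mock libraries in both genotypes. In p2k1-3 the CAM2 libraries of both treatments overlapped, at 6.61 to 7.36 CPM in mock and 7.14 to 8.42 CPM with ATP. Exons of genes on the other strand cover 47.6% of the exon bases of CAM2, and since the sources used here do not say whether counting used strand, its values are uncertain to that extent.

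CAM3 went from 124, 115 and 118 CPM to 145, 142 and 142 CPM in Col-0, a small rise without overlap (log2 fold change 0.27, SE 0.0337, edgeR adjusted p = 9.4e-07). In p2k1-3 it stood at 119 to 123 CPM in mock and 127 to 128 CPM with ATP, with no call. CAM1 rose by 0.11 on the log2 scale in bdg-8, its libraries at 162 to 172 CPM in mock and 177 to 181 CPM with ATP, and by 0.14 in the double mutant. CAM4 and CAM7 rose in bdg-8 by 0.09 and 0.12 and were not called in the other genotypes. CAM5 stood at 91.1 to 99.0 CPM in Col-0 mock and 97.7 to 102 CPM with ATP and was called in no genotype. CAM6 stood at 58.1 to 63.3 CPM in Col-0 mock and 57.0 to 59.7 CPM with ATP, also without a call. Apart from CAM2, no canonical calmodulin changed by as much as 0.5 on the log2 scale with ATP in any genotype.

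Among the genes closest to calmodulin, TCH3 had a strong response and CAM8 none that was called. TCH3 stood at 8.09, 7.14 and 8.62 CPM in Col-0 mock libraries and at 70.5, 80.1 and 77.5 CPM with ATP, a 9.52-fold rise (log2 fold change 3.25, SE 0.131, edgeR adjusted p = 6.1e-16). In p2k1-3 it went from 13.8, 17.3 and 16.8 CPM to 50.4, 61.0 and 53.8 CPM, a 3.45-fold rise. The lower fold in p2k1-3 went with both a higher mock level and a lower ATP level, and neither overlapped the Col-0 libraries of the same treatment. In bdg-8, TCH3 went from 17.8, 9.52 and 13.6 CPM to 143, 155 and 137 CPM, and in the double mutant from 14.8, 14.3 and 14.4 CPM to 134, 126 and 125 CPM. Exons of opposite-strand genes cover 20.2% of the exon bases of TCH3.

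CAM9, which has been linked to salt, abscisic acid and defence responses, went from 38.8, 38.1 and 37.1 CPM to 56.3, 64.8 and 62.7 CPM in Col-0 (log2 fold change 0.69, SE 0.0541, edgeR adjusted p = 2.4e-10). In p2k1-3 it went from 45.2, 50.4 and 46.6 CPM to 50.8, 57.6 and 56.0 CPM (0.21, SE 0.0535), the mock libraries lying above those of Col-0. In bdg-8 it went from 35.6, 36.7 and 37.3 CPM to 84.4, 87.0 and 85.8 CPM (1.23, SE 0.0539). ATP libraries lay above mock libraries in each of these genotypes, with the widest gap in bdg-8. The CAM9 call in p2k1-3 was lost without replicate 3 (edgeR adjusted p = 0.23). CML11 rose in Col-0 from 4.29, 3.03 and 2.45 CPM to 5.65, 4.71 and 6.15 CPM (0.76, SE 0.165, adjusted p = 0.0011), a call that was lost without replicate 3 (adjusted p = 0.17). AT2G41090, which ends 37 bases before TCH3 on the same strand, stood at 101, 115 and 107 CPM in Col-0 mock and 126, 112 and 112 CPM with ATP, and the treatments overlapped. CAM8, known for a part in bacterial defence, stood at 1.57 to 2.60 CPM in Col-0 mock and 1.51 to 2.06 CPM with ATP.

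TCH2 and CML23 are closely related genes linked to touch, flowering time and nitric oxide. TCH2 stood at 22.5, 24.4 and 26.0 CPM in Col-0 mock libraries and at 136, 122 and 123 CPM with ATP (log2 fold change 2.38, SE 0.0632, edgeR adjusted p = 2.1e-19). With ATP it reached 94.3, 99.8 and 98.4 CPM in p2k1-3, 242, 210 and 215 CPM in bdg-8 and 220, 196 and 197 CPM in the double mutant. Mock levels of TCH2 were alike in range, at 22.5 to 29.7 CPM over all 4 genotypes, while the ATP levels lay in separate ranges for p2k1-3, Col-0 and the genotypes with bdg-8. Exons of an opposite-strand gene cover 20.9% of the exon bases of TCH2. CML23 went from 2.65, 2.81 and 2.35 CPM to 9.71, 9.84 and 10.3 CPM in Col-0 (1.93, SE 0.114, adjusted p = 9.2e-13). With ATP it reached 5.41, 7.25 and 5.96 CPM in p2k1-3, 20.1, 19.2 and 19.0 CPM in bdg-8 and 15.8, 14.9 and 14.7 CPM in the double mutant. The ATP levels of CML23 thus had the order of those of TCH2, without overlap between p2k1-3, Col-0, the double mutant and bdg-8. AT1G18210 rose from 35.1 to 36 CPM to 49.8 to 51.7 CPM in Col-0 (0.51, SE 0.0438) and AT1G73630 and AT1G24620 had no call there. AT1G73630 fell in p2k1-3, from 6.83, 7.68 and 7.21 CPM to 4.86, 5.25 and 4.84 CPM (-0.54, SE 0.0918, adjusted p = 8.4e-05).

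**Figure D2:**
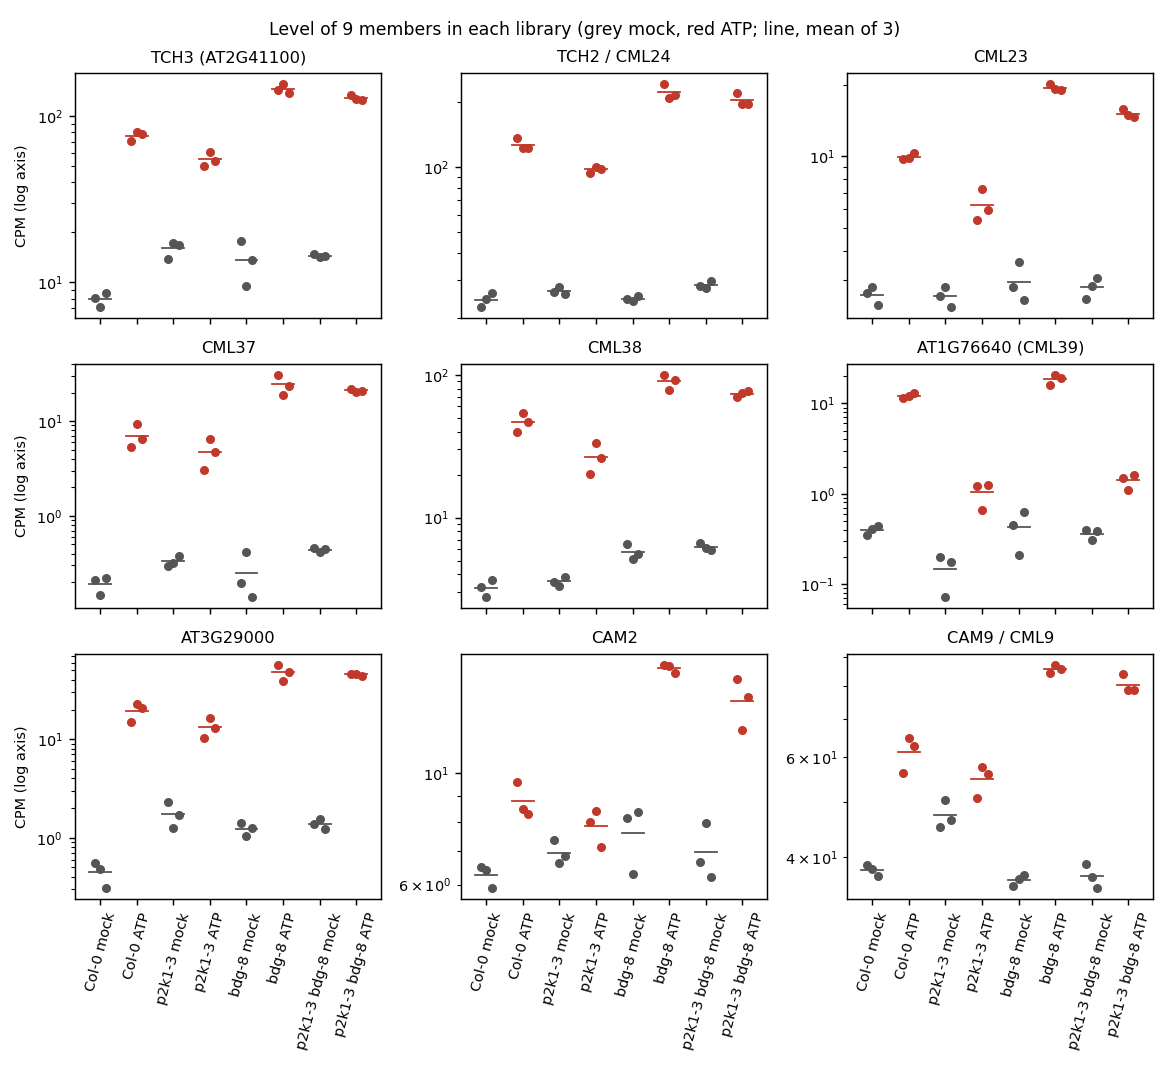
Level of 9 members in each library (points) by group, in CPM on a log axis, with the group mean as a line; grey is mock and red is ATP. ATP libraries lie above mock libraries in every genotype for all but CAM2, where p2k1-3 overlaps, and AT1G76640 with ATP drops to about 1 CPM in p2k1-3 and the double mutant.

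CML37, CML38 and AT1G76640 form a subfamily known for wound, low-oxygen and herbivore responses, and with AT3G01830 all 4 tested genes of the group rose more than 2-fold in Col-0. CML37 rose from 0.209, 0.148 and 0.219 CPM to 5.34, 9.30 and 6.46 CPM in Col-0 (log2 fold change 5.15, SE 0.394, edgeR adjusted p = 1.4e-10), from 17 reads over the 3 mock libraries to 651 with ATP. It rose 13.8-fold in p2k1-3, 96.8-fold in bdg-8 and 47.2-fold in the double mutant. CML37 with ATP reached 3.04, 6.41 and 4.71 CPM in p2k1-3 and 30.9, 18.8 and 23.4 CPM in bdg-8. The p2k1-3 libraries overlapped those of Col-0, and the bdg-8 libraries lay above both.

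CML38 rose from 3.28, 2.77 and 3.64 CPM to 39.7, 54.0 and 46.6 CPM in Col-0 (log2 fold change 3.85, SE 0.167, edgeR adjusted p = 2.5e-15). It reached 20.2, 33.4 and 26.3 CPM in p2k1-3, 100, 77.9 and 92.3 CPM in bdg-8 and 69.3, 74.3 and 76.7 CPM in the double mutant with ATP. The double mutant lay above both Col-0 and p2k1-3 for CML38. AT1G76640, whose gene lies 883 bases from CML38 on the same strand, rose from 0.349, 0.407 and 0.439 CPM to 11.4, 12.1 and 13.2 CPM in Col-0 (4.92, SE 0.207, adjusted p = 1.5e-15). In bdg-8 it went from 0.452, 0.208 and 0.626 CPM to 16, 20.8 and 19.3 CPM. In p2k1-3, by contrast in level, it went from 0.198, 0.0715 and 0.176 CPM to 1.23, 0.656 and 1.25 CPM, and in the double mutant from 0.393, 0.304 and 0.383 CPM to 1.5, 1.11 and 1.62 CPM. Among the ATP libraries, every one with p2k1-3 lay below every one without it, so that the double mutant followed p2k1-3 for AT1G76640 but not for CML38. AT3G01830 was scarce, with 7 reads over the Col-0 mock libraries and 91 with ATP (3.56, SE 0.485, adjusted p = 2.8e-06), and 23 reads in mock against 32 with ATP in p2k1-3. Exons of opposite-strand genes cover 58.1% of the exon bases of AT3G01830.

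AT3G29000 had the highest fold change of any member in Col-0. It went from 0.558, 0.481 and 0.313 CPM to 15, 22.7 and 20.8 CPM (log2 fold change 5.44, SE 0.273, edgeR adjusted p = 4.4e-14). The Col-0 mock libraries together held 39 reads of AT3G29000, against 1798 with ATP. In p2k1-3 it went from 2.31, 1.25 and 1.70 CPM to 10.4, 16.5 and 13.1 CPM, and in bdg-8 from 1.42, 1.04 and 1.25 CPM to 56.5, 39.1 and 47.8 CPM. Each mutant mock library lay above each Col-0 mock library, so the fold in p2k1-3 (7.53) was lower than in Col-0 (43.4) while the ATP levels of the 2 genotypes overlapped. CML41, known for plasmodesmal closure in the flagellin response, went from 3.38, 2.77 and 2.63 CPM to 5.56, 6.35 and 6.50 CPM in Col-0 (1.07, SE 0.219), a call lost without replicate 3 (adjusted p = 0.087). CML42, known from trichome branching and herbivore defence, rose 1.84-fold, from 8.2, 9.65 and 9.06 CPM to 16.9, 15.7 and 17 CPM. CML43, linked to pathogen responses, fell in p2k1-3 from 1.78, 1.82 and 1.52 CPM to 1.09, 1.09 and 1.03 CPM (-0.67, SE 0.166, adjusted p = 0.0045), while its Col-0 treatments overlapped.

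Of the remaining members, AT3G25600 rose 3.79-fold in Col-0, from 7.68, 6.29 and 6.30 CPM to 24.7, 25.8 and 26.4 CPM. AT2G41410 rose 2.17-fold, from 63.8, 62.9 and 62.8 CPM to 145, 127 and 138 CPM, which per kb of exon placed it with the canonical calmodulins at 106 CPM per kb with ATP. AT3G10300 also rose 2.17-fold, from 26.5, 28.8 and 27.6 CPM to 59.7, 58.9 and 61.3 CPM, with no overlap for any of the 3. AT3G47480 rose with ATP in the double mutant alone among the calls, from 5.47, 3.53 and 4.76 CPM to 10.3, 6.98 and 9.57 CPM (log2 fold change 0.95, SE 0.207, edgeR adjusted p = 0.00079, or 0.073 without replicate 3). AT1G24620 fell in the double mutant, from 1.38, 0.987 and 1.44 CPM to 0.696, 0.789 and 0.516 CPM. The 5 members that were not tested were near 0 throughout: AT1G12310 and CML30 had no read in any of the 24 libraries, AT5G39670 had 1, AT1G32250 had 6 and AT2G36180 had 26 over all libraries. The exon bases of AT1G12310 and CML30 lie entirely (100%) within exons of opposite-strand genes, as do 68.7% of those of AT5G39670. In each library, 4.03 to 4.4% was set aside as ambiguous between genes. Whether reads of AT1G12310, CML30 and AT5G39670 were among these was not tested, so their counts near 0 need not be their levels.

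Smaller changes were found in AT3G03000 and in AT5G04170. AT3G03000 stood at 6.21, 6.1 and 6.24 CPM in Col-0 mock libraries and 7.65, 7.35 and 7.94 CPM with ATP (log2 fold change 0.30, SE 0.0904, edgeR adjusted p = 0.016), and in bdg-8 it averaged 5.8 ± 0.365 CPM in mock and 9.51 ± 0.576 CPM with ATP (SD, n = 3 each). AT5G04170 went from 48.3, 47.9 and 49.2 CPM to 56.6, 55.4 and 55.4 CPM in Col-0 (0.20, SE 0.0425, adjusted p = 0.00076). Neither gene had overlapping treatments in Col-0. The centrin AT3G50360 rose by 0.19, its 3 ATP libraries at 35.9 to 36.3 CPM and its mock libraries at 31.1 to 32.6 CPM. AT1G21550 was scarcer, at 0.663, 0.851 and 0.69 CPM in mock and 1.16, 1.73 and 1.3 CPM with ATP (0.93, SE 0.269, adjusted p = 0.013), a call lost without Col-0 mock replicate 1 or 3 or Col-0 ATP replicate 2 (0.051 to 0.087). The AT3G03000 call was lost without Col-0 ATP replicate 3 (0.062). The 3 EF-hand genes AT1G62820, AT3G10190 and AT2G27480, without a call in any genotype had overlapping treatments in Col-0. AT1G62820 stood at 13.7 to 15.6 CPM in mock and 13.8 to 14.2 CPM with ATP, AT3G10190 at 4.66 to 5.51 and 4.57 to 4.9 CPM, and AT2G27480 at 2.18 to 2.76 and 2.04 to 2.45 CPM.

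Per kb of exon, levels in Col-0 without ATP spanned several orders of size over the members tested. CAM1 was highest, at 128 CPM per kb, followed by CAM3 at 104 CPM per kb, and AT3G01830 was lowest at 0.0603 CPM per kb. With ATP, CAM1 stood at 136 CPM per kb and CAM3 at 125 CPM per kb, while TCH2 had gone from 12.1 to 63.2, CML38 from 3.25 to 47.1 and TCH3 from 3.12 to 29.8 CPM per kb. AT3G29000 went from 0.514 to 22.2, AT1G76640 from 0.649 to 19.9 and CML37 from 0.14 to 5.12 CPM per kb. TCH2 with ATP thus stood in the range of CAM7 (58.3 CPM per kb) and CAM6 (71.1 CPM per kb), which were not called.

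Whether the ATP response differed without P2K1 was tested as an interaction. For 13 of the 37 members the p2k1-3 response was the smaller one, and for none was it larger, against 3.8% of all genes called smaller and 0.681% larger. The largest differences of log2 fold changes were at AT3G01830 (-3.02, SE 0.736, edgeR adjusted p = 0.016), AT3G29000 (-2.53, SE 0.454, adjusted p = 0.00092), AT1G76640 (-2.15, SE 0.612, adjusted p = 0.044), TCH3 (-1.47, SE 0.182, adjusted p = 1e-05) and CML38 (-0.96, SE 0.269, adjusted p = 0.04). TCH2 (-0.51), CML23 (-0.66), CAM9 (-0.48), CAM3 (-0.19), AT3G25600 (-0.51), AT2G41410 (-0.53), AT3G10300 (-0.45) and AT1G18210 (-0.23) made up the rest. The calls of TCH3 and AT3G29000 held without any single library. That of CML38 was lost without any 1 of the 12 libraries except Col-0 ATP replicate 1 and p2k1-3 ATP replicate 2 (adjusted p 0.054 to 0.13), and with only the groups compared in the fit (0.079). AT1G76640 lost its call without any 1 of the Col-0 mock libraries, Col-0 ATP replicates 1 and 3, p2k1-3 mock replicates 1 and 3 and p2k1-3 ATP replicate 2 (0.05 to 0.21). AT3G01830 lost it without Col-0 mock replicate 2 (0.053), p2k1-3 mock replicate 2 (0.083) or p2k1-3 mock replicate 3 (0.086). CML23 and AT1G18210 each lost the call without any 1 of several libraries (0.051 to 0.097), as did CAM3 (0.05 to 0.08), and AT1G18210 also with DESeq2 (0.063). Without replicate 3 the count was 2, TCH3 and TCH2, while over all genes the smaller responses went from 797 to 149 and the larger ones from 143 to 0. The members' count was 8 without Col-0 mock replicate 2, Col-0 mock replicate 3 or p2k1-3 mock replicate 3. Without ATP, 6 members were higher in p2k1-3 than in Col-0 and none lower, against 3.41% of all genes higher and 1.89% lower. These were AT3G29000 (log2 fold change 1.98), TCH3 (1), CAM9 (0.32), AT2G41410 (0.29), AT1G18210 (0.15) and AT3G50360 (0.13). The AT3G50360 and AT1G18210 calls were lost with DESeq2 (adjusted p = 0.096 and 0.084), with no filter (0.052 and 0.062) and with only the groups compared in the fit (0.1 and 0.051), and that of AT1G18210 also with RLE factors (0.053). AT3G50360 was not called without any 1 of Col-0 mock and p2k1-3 mock replicates 2 and 3 (0.064 to 0.18), AT1G18210 without any 1 of the 6 mock libraries (0.051 to 0.21), and AT2G41410 without any 1 of them except p2k1-3 mock replicate 1 (0.052 to 0.19). In these mock libraries the green-tissue markers summed to 16500 to 19000 CPM in p2k1-3 and 19600 to 21000 CPM in Col-0, and their part in the result was not tested. That count was 0 without replicate 3, where the calls over all genes went from 715 higher and 396 lower to 76 and 9, and it was 10 without replicate 1 and 3 without replicate 2. It was 2 without Col-0 mock replicate 3, where AT3G29000 was no longer called (adjusted p = 0.055), and 3 without Col-0 mock replicate 2, p2k1-3 mock replicate 2 or p2k1-3 mock replicate 3.

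With ATP, 10 members were lower in p2k1-3 than in Col-0 and none higher, against 5.13% of all genes lower and 1.54% higher. AT1G76640 was 0.087 times its Col-0 level (log2 fold change -3.52, SE 0.173, edgeR adjusted p = 1.6e-12), followed by AT3G01830 (-1.43, not called without Col-0 ATP replicate 1 or 3 or p2k1-3 ATP replicate 2, adjusted p 0.05 to 0.068), CML38 (-0.82) and CML23 (-0.68). TCH3 (-0.47), TCH2 (-0.38), AT3G25600 (-0.36), AT3G10300 (-0.35), CAM3 (-0.17) and AT3G29000 (-0.55), whose libraries overlapped and whose call was lost with DESeq2 (0.11) and without any 1 of Col-0 ATP replicates 2 and 3 and p2k1-3 ATP replicates 1 and 3 (0.092 to 0.15), were the others. Without replicate 3 the count was 3, and over all genes the number lower went from 1077 to 174. The interaction, the mock comparison and the ATP comparison share libraries, so they are 3 views of the same 12 libraries and not independent of each other.

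In the bdg-8 background, the ATP response of the double mutant differed from that of bdg-8 for AT1G76640 alone among members in the fit of all libraries (-3.50, SE 0.468, edgeR adjusted p = 0.00049), against 0.486% of all genes called smaller and 0.152% larger. DESeq2 called 4 members, AT1G76640, TCH2 and AT3G10300 smaller and AT3G47480 larger, and edgeR without replicate 1 called 4, AT1G76640, TCH2, AT3G10300 and AT1G18210, all smaller. At an unadjusted p below 0.05, 8 members differed, and 10.7% of all genes did. TCH3, AT3G29000 and TCH2, for which the response was smaller without P2K1 in the Col-0 background, differed here by -0.26 (SE 0.170), -0.23 (SE 0.384) and -0.34 (SE 0.0868), none of them called by edgeR with all libraries. The adjusted p of TCH2 was 0.079. The count was 3 without the double mutant ATP replicate 1, and without replicate 3 it was 0, the adjusted p of AT1G76640 becoming 0.15 at a difference of -3.90. Whether the effect of p2k1-3 itself differed between the Col-0 and bdg-8 backgrounds was not tested. Without ATP, no member was called between the double mutant and bdg-8 by edgeR or by DESeq2, and 4 passed an unadjusted p below 0.05, as did 12.1% of all genes. Over all genes in that comparison, 0.381% were called higher and 0.286% lower.

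**Figure D3:**
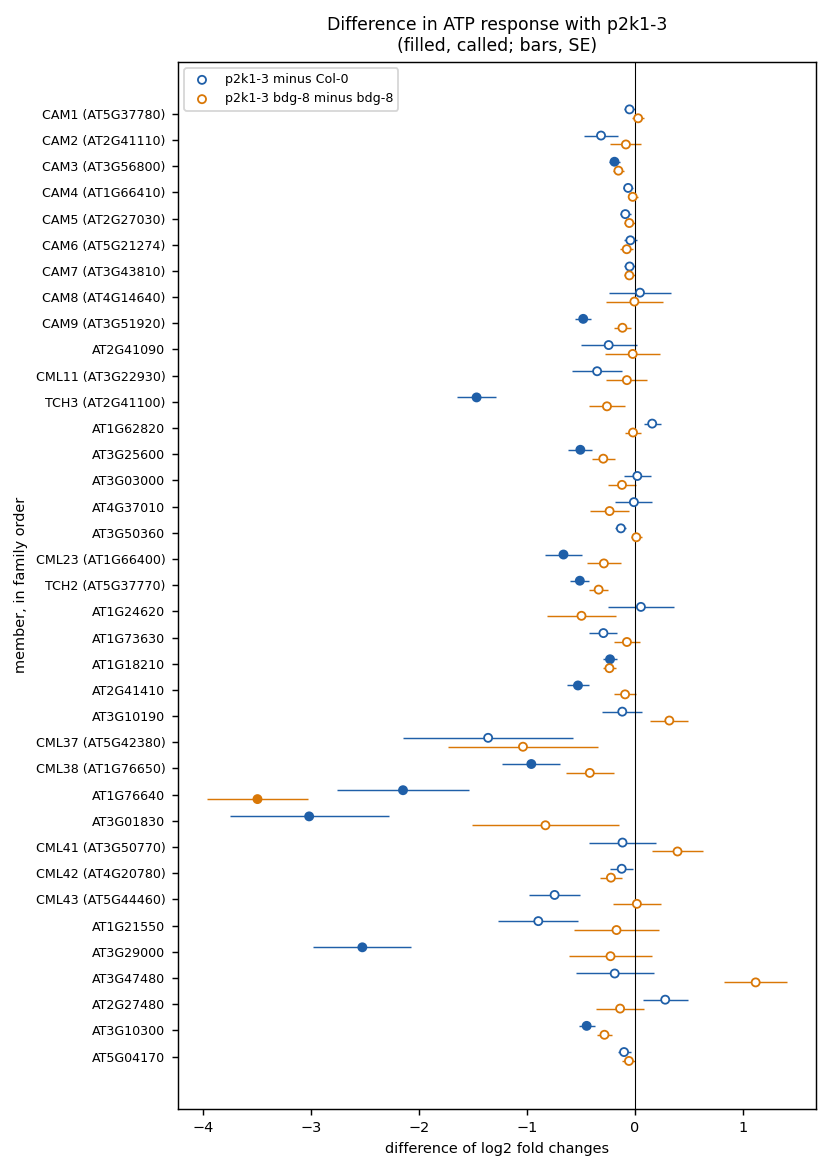
Difference in log2 fold change with ATP between genotypes with and without p2k1-3, for the 37 members tested (rows), in the Col-0 background (blue) and the bdg-8 background (orange); filled points were called and bars are SE. Blue filled points all lie left of 0, and AT1G76640 is the orange filled point, at -3.50.

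Whether the cuticle mutation changed the ATP response was tested in the same way. For 9 members the bdg-8 response exceeded that of Col-0, and for none was it smaller, against 5.76% of all genes called larger and 2.15% smaller. The largest were TCH2 (difference of log2 fold changes 0.80, SE 0.088, edgeR adjusted p = 1.2e-06), CML23 (0.78, SE 0.163), AT1G18210 (0.62, SE 0.0613), AT3G25600 (0.62, SE 0.111) and AT3G10300 (0.61, SE 0.0743). CAM2 (0.60), CAM9 (0.54), AT2G41410 (0.34) and CAM3 (0.15) were the others, and the calls of AT2G41410 and CAM3 were each lost without any 1 of several libraries (adjusted p 0.068 to 0.13 and 0.052 to 0.14). TCH3, CML38 and AT3G29000 had higher levels in bdg-8 than in Col-0 both with and without ATP. They differed in response by 0.15 (SE 0.184), 0.13 (SE 0.253) and -0.18 (SE 0.493), without a call. The response was larger in the double mutant than in p2k1-3 for 16 members and smaller for none, against 9.85% of all genes larger and 6.38% smaller. These were led by AT3G01830 (3.33, SE 0.642), AT3G29000 (2.13, SE 0.363), TCH3 (1.36, SE 0.170), CML23 (1.16, SE 0.168) and AT3G47480 (1.15, SE 0.317, or 0.83 and not called without p2k1-3 mock replicate 2). The estimate was below 0 for 4 members, none of them called, among them AT1G76640 at -0.84 (SE 0.549). Without replicate 3 the counts were 5 for bdg-8 against Col-0 and 9 for the double mutant against p2k1-3, and over all genes the larger responses went from 1209 to 405 and from 2067 to 1023. The comparison of bdg-8 with Col-0 shares the Col-0 libraries with that of p2k1-3, and the comparison of the double mutant with p2k1-3 shares the p2k1-3 libraries. Green-tissue markers summed to 13900 CPM in bdg-8 mock and 14100 CPM with ATP, against 20300 and 20900 CPM in Col-0. They summed to 13000 CPM in double mutant mock and 12300 CPM with ATP, against 17700 and 20100 CPM in p2k1-3. For the double mutant against p2k1-3, the difference in ATP response was called lower for 1 of these 4 markers (median -0.278). For bdg-8 against Col-0 it was called for none (median -0.0937). The part of these markers in these results was not tested.

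Levels without ATP were also higher in bdg-8 for a number of members. Of the 37, 14 were higher in bdg-8 than in Col-0 and 1, the centrin AT4G37010, was lower (log2 fold change -0.33, overlapping and not called without Col-0 mock replicate 2 or 3 or bdg-8 mock replicate 1 or 3, adjusted p 0.093 to 0.33), against 18% of all genes higher and 18.5% lower. The AT4G37010 call was also lost with DESeq2 (adjusted p = 0.054) and with only the groups compared in the edgeR fit (0.099). In the same comparison both markers of dividing cells were lower (median log2 fold change -0.358), all 4 green-tissue markers were lower (-0.628) and 1 of 3 root-hair markers was higher, and their part in the result was not tested. CML41 was highest in fold, at 11.4, 5.94 and 9.33 CPM in bdg-8 against 3.38, 2.77 and 2.63 CPM in Col-0 (1.61, SE 0.209, edgeR adjusted p = 3.1e-06). AT3G29000 (1.47, SE 0.472), AT3G47480 (1.41, SE 0.235) and CML11 (0.89, SE 0.164) came next, the AT3G29000 call being lost without Col-0 mock replicate 3 (adjusted p = 0.08) or bdg-8 mock replicate 1 (0.065). AT3G47480 stood at 8.42, 5.39 and 6.47 CPM in bdg-8 and 2.48, 2.44 and 2.73 CPM in Col-0. None of these bdg-8 libraries overlapped those of Col-0, and for each the spread within bdg-8 was wider than within Col-0 in CPM. CAM1, CAM4 and CAM5 were higher by 0.18, 0.22 and 0.20, and CML38, TCH3, AT2G41090, CML43, AT2G41410, AT1G73630 and AT3G50360 made up the rest. Of these, CML43 was not called with DESeq2 (adjusted p = 0.067) or with only the groups compared in the edgeR fit (0.066). CML43 also lost its call without Col-0 mock replicate 2 or 3 or bdg-8 mock replicate 2 (edgeR adjusted p 0.065 to 0.11). The AT2G41090 call was lost without bdg-8 mock replicate 1 (edgeR adjusted p = 0.077). TCH2 (0.01, SE 0.068) and CML23 were not among the members called, at 24.4, 24 and 25.2 CPM for TCH2 in bdg-8 mock.

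In the p2k1-3 background, 9 members were higher in the double mutant than in p2k1-3 without ATP and 1, CAM9, was lower (-0.35), against 15.1% of all genes higher and 16.1% lower. CML41 (1.49, SE 0.200), CML11 (0.93, SE 0.153), CML38 (0.80, SE 0.210) and AT2G41090 (0.75, SE 0.182) had the largest differences, with edgeR adjusted p of 5.6e-06, 6.6e-05, 0.0054 and 0.0029. The CML38 and AT2G41090 calls were lost without replicate 3 (edgeR adjusted p = 0.072 and 0.12). CML11 stood at 7.99, 6.83 and 7.34 CPM in the double mutant and 3.56, 3.90 and 4.16 CPM in p2k1-3. Its libraries did not overlap between these genotypes. Without replicate 3 the counts of mock calls were 9 for bdg-8 against Col-0 and 4 for the double mutant against p2k1-3, and over all genes the number higher went from 3778 to 1374 and from 3180 to 970. With ATP, 29 of the 37 members were higher in bdg-8 than in Col-0 and none lower, against 24.5% of all genes higher and 21.3% lower, and 23 were called without replicate 3. CML37 (1.80, SE 0.180), AT3G01830 (1.62, SE 0.242), AT3G29000 (1.30, SE 0.135) and AT3G47480 (1.25, SE 0.238) had the largest differences there. All 4 green-tissue markers were lower in the mock comparison of the double mutant with p2k1-3 (median log2 fold change -0.54). There, 1 of 2 markers of dividing cells was lower and 1 of 3 root-hair markers was higher. With ATP in bdg-8 against Col-0, all 4 green-tissue markers (-0.892) and both markers of dividing cells were lower. In that comparison 1 of 3 root-hair markers was higher. The part of these markers was not tested.

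**Figure D4:**
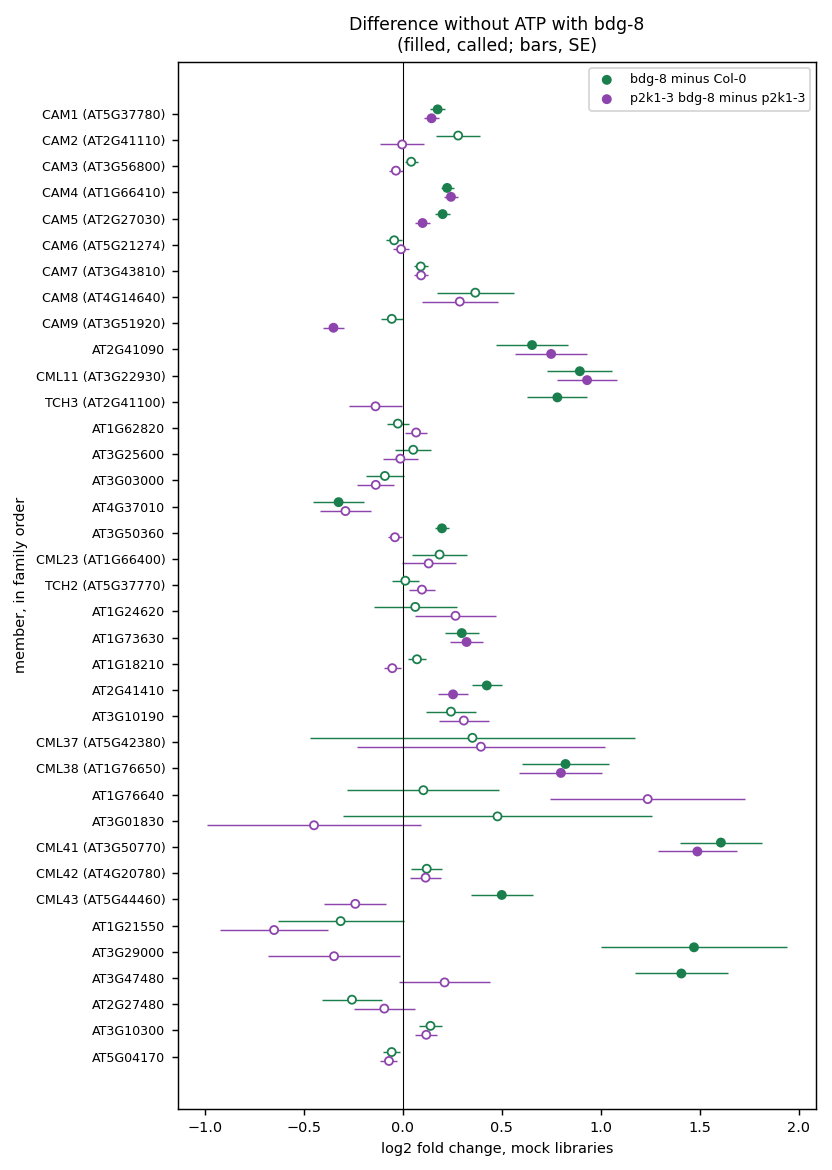
Log2 fold change of each of the 37 members tested (rows) with bdg-8 against without it in mock libraries, in the Col-0 background (green) and the p2k1-3 background (purple); filled points were called and bars are SE. CML41 and CML11 are filled and right of 0 in both backgrounds, and CAM9 is filled and left of 0 in the p2k1-3 background.

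Several members lie next to each other in the genome. TCH2 and CAM1 are 4846 bases apart on chromosome 5, and in Col-0 the log2 fold changes with ATP were 2.38 and 0.08. CML23 and CAM4 are 2719 bases apart on chromosome 1, with 1.93 and a CAM4 level of 157 to 168 CPM in mock and 169 to 174 CPM with ATP. AT2G41090, TCH3 and CAM2 follow each other on chromosome 2, with 37 and 482 bases between them, and TCH3 rose 9.52-fold and CAM2 1.40-fold while AT2G41090 had no call. CML38 and AT1G76640 both rose in all 4 genotypes, and AT1G76640 alone of the pair was called for a smaller response in the double mutant than in bdg-8. For a pair, whether 1 gene's difference exceeded the other's was not tested.

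Other calcium-binding genes, and genes from families with known calmodulin partners, gave a background for the family. Of 15 other CML genes outside the 42, 6 were tested, and in Col-0 with ATP 2 rose and 2 fell. Over all genes tested, 13.2% were called higher and 8.67% lower in Col-0. MSS3 rose (log2 fold change 1.77) and AT4G26470 rose (0.50), while AGD11 fell by 0.93 and AT1G05990 fell by 0.91. Of 10 calcineurin B-like (CBL) sensors, another EF-hand family that works through protein kinases, 9 were tested and 1 rose, CBL1 (0.83). Of 25 genes for calmodulin-regulated or calmodulin-binding proteins or relatives in their families, 14 rose in Col-0 and none fell, against the same 13.2% and 8.67%. SARD1 and CBP60G, transcription factors of salicylic acid synthesis from a family of calmodulin-binding proteins, rose by 3.55 and 3.36. SARD1 was listed by family, and whether it binds calmodulin itself was not examined. Among the genes for calmodulin-regulated calcium pumps, AT1G27770, also known as ACA1, rose from 52.5, 53.6 and 53.3 CPM to 221, 252 and 235 CPM (2.15, SE 0.0675), and ACA10 and ACA11 rose by 0.61 and 0.69. In p2k1-3, 12 of the 25 rose, against 11.9% of all genes called higher, with SARD1 at 1.59 and CBP60G at 1.5. In the interaction of p2k1-3 with Col-0, 8 of the 25 had a smaller response, SARD1 (-1.96) and CBP60G (-1.86) among them, and none a larger one. Over all genes, 3.8% were called smaller and 0.681% larger in that interaction. In bdg-8, 19 rose and 1 fell, against 18.7% of all genes higher and 17.7% lower. In the double mutant 17 rose and 4 fell, against 17.1% of all genes higher and 16.5% lower. The counts for these lists were taken with all libraries and were not repeated without replicate 3.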

How the data were processed

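The authors deposited 1 table of read counts per library, whole numbers per gene with no normalization, for 33245 genes and 5 summary entries. Per the submitters' processing notes, cutadapt 1.13, MultiQC 1.9, STAR 2.7.4a and HTSeq 0.13.5 were used; settings, genome build, annotation and strand setting are not given in the sources used here. The summary entries, left out of library sizes and tests, held 7.6 to 12.2% of each library's total, including reads that were not unique (3.13 to 7.59%) or ambiguous between genes (4.03 to 4.4%). PCR copies carried no molecular identifiers.

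From the deposited counts, edgeR 4.0.16 (R 4.3.3) fitted 1 quasi-likelihood model with a mean for each of the 8 groups (16 residual degrees of freedom), TMM factors of 0.954 to 1.07 and edgeR's default expression filter by group, which left 20995 genes. The median coefficient of variation between replicates was 0.0477. P-values were adjusted by Benjamini-Hochberg over all genes tested and called below 0.05. Levels are CPM on TMM-scaled library sizes. The script was tested on simulated data. Alternatives were DESeq2 1.42.0, RLE factors, no filter, only the groups compared, a replicate block and leaving out libraries.

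The members, gene lists, tests and alternatives were chosen with earlier results of these data known. Named with values were the canonical calmodulins and their closest relatives, the CML37 group, the 6 (ATP), 5 (interaction) or 4 (genotype) called members with the largest changes per comparison, and every called member where at most 6 were called in a direction; a few further members are named to complete a count, chosen after their values were seen.

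Replicate numbers were shared by all groups. Same-numbered libraries deviated together with correlations of -0.11 to 0.4, and every pair exceeded 0.1 in 3 of the 10 comparisons of 2 groups (ATP in bdg-8, and p2k1-3 or bdg-8 against Col-0 with ATP). A fit with the replicate number as a block lost none of the calls of the members. Symbols and sequences came from the RefSeq annotation of TAIR10.1, in which 33056 gene identifiers matched; its coordinates need not be those used in counting.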

Additional observations from a re-analysis of the deposited data

Results flagged for a closer look

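The ATP response differed between genotypes by the interaction test of edgeR for the following members, given as differences of log2 fold changes with ATP. Between p2k1-3 and Col-0 these were AT3G01830 (-3.02), AT3G29000 (-2.53), AT1G76640 (-2.15), TCH3 (-1.47) and CML38 (-0.96). Between bdg-8 and Col-0 they were TCH2 (0.80), CML23 (0.78), AT1G18210 (0.62), AT3G25600 (0.62) and AT3G10300 (0.61). Between the double mutant and bdg-8 it was AT1G76640 (-3.50). Between the double mutant and p2k1-3 they were AT3G01830 (3.33), AT3G29000 (2.13), TCH3 (1.36), CML23 (1.16) and AT3G47480 (1.15). AT3G01830 had 7 to 23 reads in the 3 mock libraries of a genotype together, and AT1G76640 had 14 in those of p2k1-3.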

How the results depend on the processing

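Of the 201 calls of members over the comparisons, none changed direction under any alternative run. DESeq2 kept 193, no filter 195, RLE factors 199, only the groups compared 188 and the replicate block 201; without replicate 1, 2 or 3 the same test kept 186, 178 and 129. The replicate block gave 13 members with a smaller response in p2k1-3 than in Col-0, as without it, and lost no call of a member. The count for the double mutant against bdg-8 in ATP response was 1, against 2 with no filter and 4 with DESeq2. Leaving out 1 library or 1 replicate number gave 18 to 23 members for ATP in Col-0, 13 to 19 in p2k1-3, 21 to 27 in bdg-8 and 22 to 27 in the double mutant. It gave 2 to 12 for the response of p2k1-3 against Col-0, 5 to 10 for bdg-8 against Col-0, 0 to 4 for the double mutant against bdg-8 and 9 to 18 against p2k1-3. In mock it gave 0 to 10 for p2k1-3, 9 to 16 for bdg-8 and 4 to 13 for the double mutant against p2k1-3, and with ATP 3 to 11 for p2k1-3 and 23 to 29 for bdg-8. Fits without a replicate number have fewer libraries; the cause of the lost calls was not tested further. Depth limits AT3G01830, CML37 and AT1G76640, whose mock groups held 7 to 39 reads. It also limits the comparisons of AT3G29000 that use the Col-0 mock group, which held 39 reads of that gene.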
